A study of Mus musculus with 75 samples.

Results

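The genes described here are 9 ion and water transport genes of the choroid plexus: Aqp1, Slc4a5, Slc4a10, Slc12a2, Slc4a2, Atp1b1, Car12, Kcne2 and Kcnj13. They were chosen by symbol as genes of this tissue, with earlier results of these data known. Each had 1 transcript row in both deposited tables, so they are 9 of 20623 genes in the tissue table and 9 of 16916 in the parabiosis table. RNA was sequenced from 11 tissues of aged C57BL/6 mice (22 months, 3 animals) and of young C57BL/6 mice (3 months, 3 animals), none of them treated and all perfused with PBS, which gave 63 libraries. The titles of these libraries label the mice WT, for wild type. A second experiment gave 11 choroid plexus libraries from C57BL/6 parabionts, which are mice joined by surgery so that they share a circulation: 2 from old mice joined to a young partner (old heterochronic), 3 from old mice joined to an old partner (old isochronic), 3 from young mice joined to an old partner (young heterochronic) and 3 from young mice joined to a young partner (young isochronic). Old parabionts were 22 months old and young ones 3 months old.

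The choroid plexus is a fold of vascularised tissue in the brain ventricles whose epithelium secretes the cerebrospinal fluid. The sodium pump, of which Atp1b1 encodes a beta subunit, drives the sodium gradient across that epithelium. Anion exchangers and sodium bicarbonate carriers move chloride and bicarbonate along with it, and carbonic anhydrases are enzymes that form bicarbonate. Slc12a2 encodes a sodium, potassium and chloride cotransporter on the side that faces the fluid, Kcnj13 and Kcne2 encode a potassium channel and a subunit of potassium channels, and Aqp1 encodes a water channel. Whole tissue was sequenced, so fewer cells of a type cannot be told apart from less RNA per cell.

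Promoter sequences are shown for the 3 genes whose pattern over tissues was most alike, Kcnj13, Kcne2 and Slc4a5. They come from RefSeq on GRCm38.p6, and each is the 250 bases before a transcription start, with every CANNTG (the E-box, which reads the same on both strands) in capitals. Kcnj13 lies on the minus strand at chr1:87394730-87394979, Kcne2 (the first of its 2 starts) on the plus strand at chr16:92292139-92292388, and Slc4a5 on the plus strand at chr6:83237125-83237374.

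Kcnj13: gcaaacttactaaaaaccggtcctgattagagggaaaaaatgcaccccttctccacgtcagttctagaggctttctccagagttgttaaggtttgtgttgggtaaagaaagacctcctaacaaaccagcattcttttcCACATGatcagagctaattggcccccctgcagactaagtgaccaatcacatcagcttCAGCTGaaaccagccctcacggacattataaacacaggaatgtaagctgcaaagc

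Kcne2: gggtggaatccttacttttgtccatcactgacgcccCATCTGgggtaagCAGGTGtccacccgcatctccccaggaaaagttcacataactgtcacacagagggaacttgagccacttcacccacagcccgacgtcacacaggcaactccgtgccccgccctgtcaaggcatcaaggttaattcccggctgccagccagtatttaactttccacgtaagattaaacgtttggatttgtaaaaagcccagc

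Slc4a5: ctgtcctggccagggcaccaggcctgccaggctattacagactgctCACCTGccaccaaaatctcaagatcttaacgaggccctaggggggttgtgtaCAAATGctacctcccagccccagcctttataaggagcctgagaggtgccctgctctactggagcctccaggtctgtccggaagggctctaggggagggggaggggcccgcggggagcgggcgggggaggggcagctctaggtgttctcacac

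Each of these 3 windows holds 2 E-boxes, and 31.8% of the 32851 windows in the RefSeq table hold 2 or more. The second motif searched, TAATCC on either strand, is the core letters that OTX-type homeobox factors prefer; it is in none of the 11 windows of the 8 members that were looked up, and in 6.25% of all windows. The second Kcne2 window, which is not shown, holds 1 E-box. The windows of Atp1b1, Car12 and Slc4a2 hold no E-box, that of Aqp1 holds 1, and the first of 2 Slc4a10 windows holds 3 and the second none.

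How the deposited values were counted and scaled was not stated. Between 78.0 and 86.9% of the values above 0 in a library are whole multiples of its most frequent value, which is about 1 and is taken here as the value worth 1 read, and the reads below are estimates that rest on this. A common step for all genes is the reason for treating the values as not divided by transcript length, so levels are compared between tissues for 1 gene and not between genes. Depth was 570386 to 676473 reads per choroid plexus library in aged mice and 533727 to 714391 in young mice, within a range of 187524 to 1134078 over all 63 tissue libraries, and the parabiosis libraries held 533564 to 990065. The 12 epithelial markers, led by Ttr (transthyretin), summed to 230249 to 294804 in choroid plexus and to 221 to 490.2 in hippocampus, so the labelled tissue carries its markers. RNA of the choroid plexus was purified with another kit than RNA of all other tissues, per the labels' protocols, so kit and tissue cannot be told apart in any difference of level. Libraries of young mouse 2 stood apart in several other tissues: the neuron markers summed to 1489 in its hippocampus, against 5290 to 6150 in the other 5, and the lung epithelium markers to 34756 in its spleen, against 28.5 to 80.3. Its choroid plexus library lay within the range of the others for those lists, and leaving that mouse out of every tissue kept all 9 members called in the comparison of levels.

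All 9 transport genes were higher in choroid plexus than in the mean of the other 10 tissues, by 2.46 (Aqp1) to 8.59 (Kcnj13) on the log2 scale with a median of 6.39. They were chosen as genes of this tissue, so the count of 9 is no independent evidence. The test was limma on log2(value + 1 read) over all 63 libraries, with Benjamini-Hochberg adjustment over all genes, and it called 62.9% of 16098 genes in one direction or the other, 4469 higher and 5664 lower, with a median over all genes of -0.20. The split depends on the scaling: limma's voom on reads gave 3058 higher and 7926 lower of 10984 called, with all 9 transport genes still higher. Against single tissues, 85 of 90 comparisons were higher, none was lower and 5 did not pass. The share of genes called in these was 55.8% against bone marrow, 51.7% against cervical, 53.3% against inguinal and 53.6% against mesenteric lymph nodes, 48% against colon, 47.2% against hippocampus, 47.5% against liver, 46.8% against lung, 54.6% against spleen and 53.9% against thymus. For 7 of the 9 genes, every choroid plexus library lay above every one of the 57 other libraries, which was so for 3.9% of all genes; the exceptions were Aqp1 and Atp1b1.

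The potassium channel genes had the widest gap. Kcnj13, an inward rectifier potassium channel, ranged from 591 to 849.5 with a median of 802 in the 6 choroid plexus libraries, and the next tissue, lung, averaged 8.60 ± 2.17 (SD, n = 6). Its difference from the mean of the other tissues was 8.59 ± 0.339 (log2, SE; limma, adjusted p = 5.71e-27). Kcne2, which encodes a subunit that modifies potassium channels, ranged from 502 to 769 with a median of 566, and lung was again next, at 15.6 ± 7.02. Its difference was 8.05 ± 0.345 (limma, adjusted p = 1.52e-25), and it was listed at 0 in all 6 libraries of inguinal lymph nodes. The ratio of choroid plexus to lung means was 88.1 for Kcnj13 and 38.4 for Kcne2.

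Among the bicarbonate genes the next tissue differed. Slc4a5, an electrogenic sodium bicarbonate cotransporter, ranged from 299 to 329 with a median of 313 in choroid plexus, the narrowest spread of the 9 (CV 3.74%), and averaged 16.4 ± 2.81 in lung; 39 of the 57 other libraries were at 0. Slc4a10, a sodium-coupled bicarbonate carrier that neurons also express, ranged from 91.6 to 179 with a median of 151, the widest spread (CV 26.9%), and averaged 27.1 ± 13.3 in hippocampus. It was listed at 0 in every library of bone marrow, lung and spleen. Slc4a2, an anion exchanger that trades chloride for bicarbonate, ranged from 771 to 1232 with a median of 893 and averaged 122 ± 28.9 in colon; no library was at 0. Car12, a carbonic anhydrase of the cell surface, ranged from 291 to 477 with a median of 363 and averaged 23.2 ± 8.76 in colon and 12.8 ± 3.47 in hippocampus (SD, n = 6 each). The 4 differences from the mean of the other tissues were 7.64 ± 0.290 for Slc4a5, 6.39 ± 0.280 for Slc4a10, 4.80 ± 0.166 for Slc4a2 and 7.0 ± 0.331 for Car12 (log2, SE).

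The cotransporter and the pump subunit were broader. Slc12a2 ranged from 475 to 567 with a median of 499.7 in choroid plexus and averaged 150.2 ± 45.4 in colon, a secretory and absorptive epithelium, and 48.9 ± 16.6 in lung. Atp1b1 ranged from 297 to 512 with a median of 448 in choroid plexus and averaged 308 ± 109 in hippocampus and 268 ± 68.9 in colon (SD, n = 6 each). The choroid plexus did not pass against hippocampus (0.53 ± 0.526, log2, SE; limma, adjusted p = 0.449; 95% interval -0.53 to 1.6) or against colon (0.67 ± 0.526, adjusted p = 0.320; -0.40 to 1.73), so these 3 neighbours in the order of Atp1b1 levels overlap. The hippocampus library of young mouse 2 had an Atp1b1 value of 116, against 283 to 437 in the other 5, and the hippocampus mean without that mouse was 347.

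Aqp1 was the gene whose order differed most from the others. Choroid plexus, at 484 ± 73.4, came second to lung, at 614 ± 162 (SD, n = 6 each), and was followed by bone marrow at 277 ± 83.5 and liver at 209.5 ± 80.0 (SD, n = 5 each). The choroid plexus libraries ranged from 399 to 579 with a median of 474, and those of lung from 359.6 to 785, so they overlap. Choroid plexus against lung was -0.31 ± 0.609 (limma, adjusted p = 0.720), against bone marrow 0.88 ± 0.650 (adjusted p = 0.267) and against liver 1.31 ± 0.649 (adjusted p = 0.0960), and none of these passed. Aqp1 is known from red cells and capillary endothelium as well as from choroid plexus. The hippocampus had the lowest mean, with 0 to 4.43 in 5 libraries and 69.2 in that of young mouse 2. In that library the lymphocyte markers summed to 549, against 3.06 to 4.87 in the other 5. Also high were the sums for macrophage (1086, against 59.6 to 129), endothelial (201, against 68.2 to 94.5), fibroblast (293, against 39.7 to 80.0) and fat cell markers (186, against 1.21 to 6.19). The erythroid sum was 11.1, within the 9.40 to 53.0 of the others. The cervical lymph node library of the same mouse had sums near those of this hippocampus library. They were 593 for lymphocyte, 1389 for neuron (1489 in hippocampus), 509 for astrocyte (557) and 787 for oligodendrocyte markers (837). Why the 2 libraries are alike was not tested, nor was the part of these cells in the hippocampus Aqp1 value. The aged inguinal node library of mouse 3, with an Aqp1 value of 530.3, also had high summed levels of fat cell markers (5466, against 13.3 to 326 in the other 5), of erythroid markers (4728, against 20.1 to 890.0) and of mural markers (1252, against 300.3 to 416), and their part in its Aqp1 value was not tested.

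**Figure D1:**
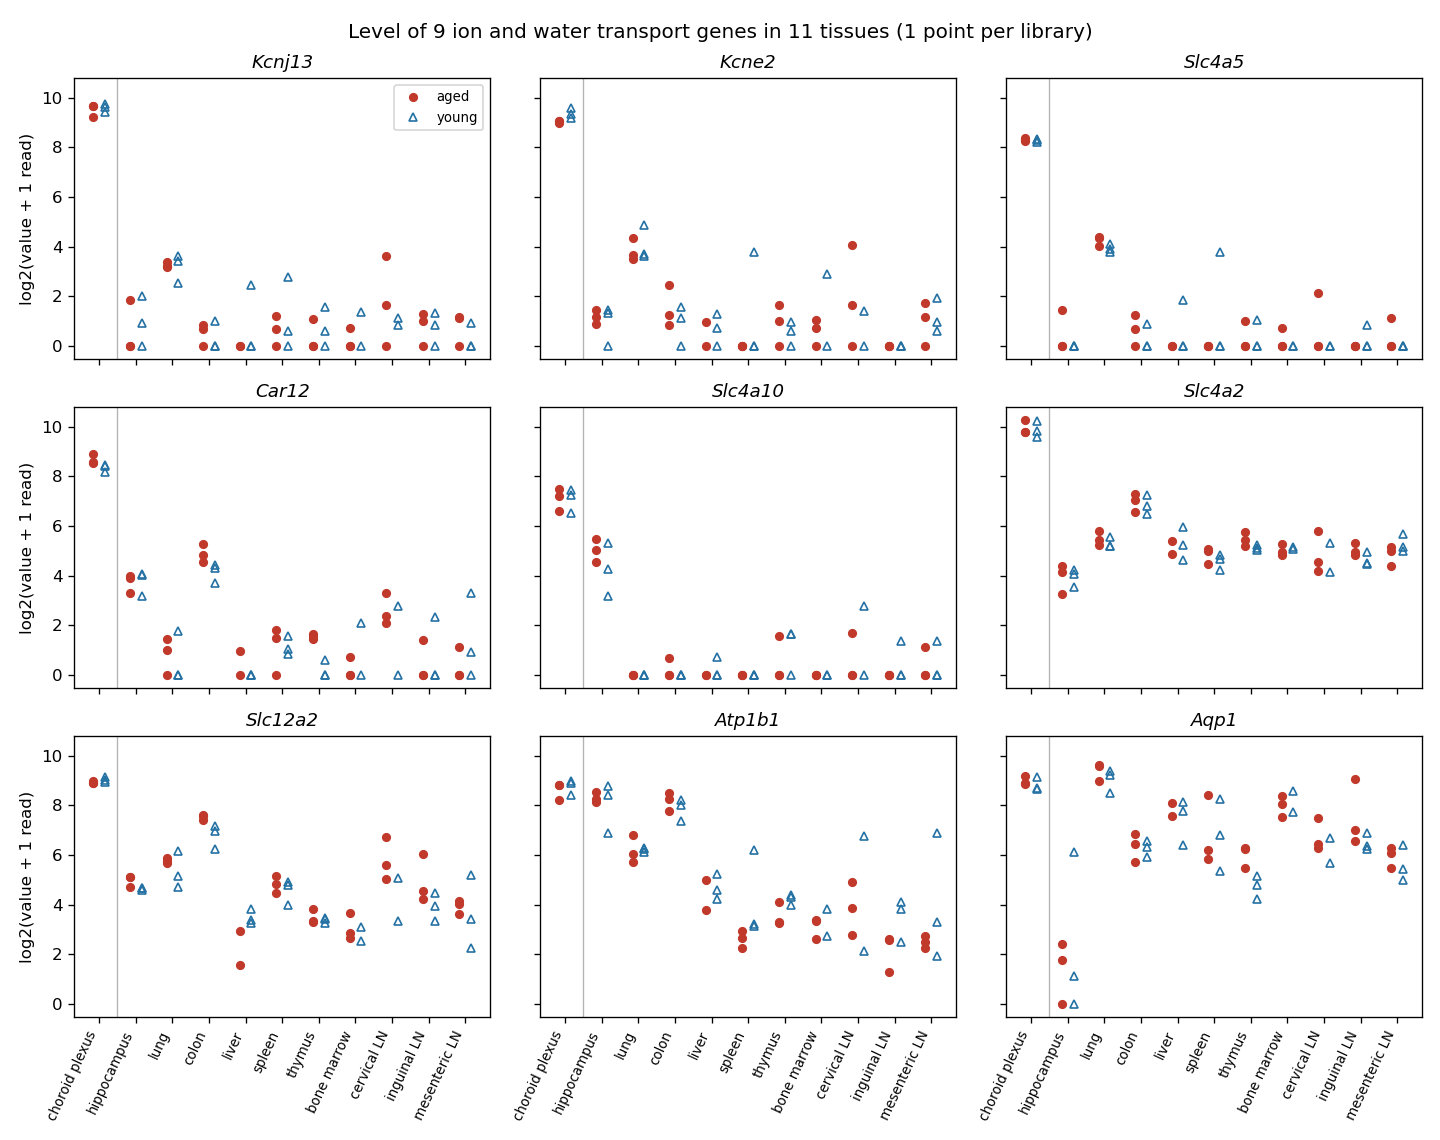
Level of each of the 9 genes as log2(value + 1 read) in every library, by tissue (LN, lymph nodes), with aged mice as filled circles and young mice as open triangles. For 7 of the 9 genes all choroid plexus libraries, left of the grey line, lie above every other library; Atp1b1 overlaps with hippocampus and colon, and Aqp1 with lung and others.

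Over the 11 tissue means of log2 values, Slc4a5, Kcne2 and Kcnj13 had a pairwise Pearson r of 0.979 to 0.986, and all 3 were next highest in lung. Aqp1 had r of -0.17 to 0.54 with the other 8. These are descriptions over 11 points that all share the choroid plexus. Of 13132 genes, those most like Slc4a5 were Mir34b, Drc7 and Morn5 (r of 0.993 to 0.996), those most like Kcne2 were Morn5, Drc7 and Trp73 (0.989 to 0.991), and those most like Kcnj13 were Iqub, Trp73 and Wdr72 (0.991 to 0.998). Drc7 is a subunit of the dynein regulatory complex of motile cilia. Those most like Slc4a10 were Frmpd4, Atp2b3 and Cntnap2 (0.990 to 0.991), each next highest in hippocampus. For Atp1b1 they were Nme7, Cttn and Gm10516 (0.951 to 0.990), for Slc12a2 Sgk1, Fam160a1 and Nipsnap2 (0.941 to 0.961), for Slc4a2 Col8a1, Steap1 and Wbp1 (0.964 to 0.972), for Car12 Cacna2d2, 4932438H23Rik and Nipsnap2 (0.947 to 0.965), and for Aqp1 Vamp8 and Manba (0.959 to 0.962). Nme7 averaged 163 in choroid plexus and 111 in hippocampus.

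Other transport genes of the tissue gave a context for the 9. Of a list of 32 pump subunits, exchangers, channels and their regulating kinases, 19 were higher in choroid plexus than in the mean of the other tissues, 6 were lower and 7 did not pass, and the median was 1.32 against -0.20 over all genes. The 4 with the smallest p were Trpm3, a cation channel (6.62 ± 0.231), Slc13a4, a sodium sulfate cotransporter (8.15 ± 0.312), Clic6, of the chloride intracellular channel family (8.05 ± 0.386), and Slc12a4, a potassium and chloride cotransporter (3.76 ± 0.192; log2, SE). Among the lower ones were Kcna3, Slc4a7, Slc4a4, Kcnq1 and Kcna1. Kcnq1, a potassium channel with which the Kcne2 product is known to assemble in several tissues, was -1.19 ± 0.349, and its choroid plexus values were 0 to 1.28, about 1 read or fewer. Aqp4, the water channel of astrocytes, did not pass (-0.14 ± 0.344, limma, adjusted p = 0.741).

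With age, none of the 9 genes passed in choroid plexus. The test on 3 aged and 3 young libraries called 0.304% of 10205 genes (31 genes). The 9 differences, aged minus young, ran from -0.35 to 0.32 with a median of 0.02 on the log2 scale, with adjusted p of 0.613 to 0.998. Aged and young libraries did not overlap for 2 of the 9, Kcne2 and Car12, and for 11.4% of all genes. Of the marker lists, 9 of 12 epithelial markers lay below 0 (median -0.19). So did 4 of 4 endothelial (-0.53) and 4 of 4 mural markers tested (-0.52), and 4 of 6 fibroblast markers (-0.13). Above 0 lay 2 of 2 macrophage (0.53) and 2 of 2 oligodendrocyte markers tested (0.63). None of these markers was called, and their part in the differences was not tested.

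Kcne2 had values of 502, 541 and 530.4 in aged choroid plexus, against 769, 654 and 589.7 in young choroid plexus. All aged libraries lay below all young ones, and the difference was -0.35 ± 0.134 (log2, SE; limma, adjusted p = 0.613; 95% interval -0.62 to -0.07). Car12 had 374, 477 and 385 in aged and 291, 352 and 345 in young choroid plexus. All aged libraries lay above all young ones, at 0.32 ± 0.147 (limma, adjusted p = 0.769; 0.02 to 0.62). Neither passed over all genes.

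The bicarbonate carriers overlapped between ages. Slc4a5 had 302, 329 and 315 in aged and 299, 323 and 310.1 in young choroid plexus, a difference of 0.02 with a 95% interval of -0.27 to 0.31. Slc4a10 had 97.3, 148 and 179 in aged and 175, 153 and 91.6 in young choroid plexus (0.02, interval -0.47 to 0.52). Slc4a2 had 1232, 873 and 879 in aged and 771, 906 and 1211 in young choroid plexus (0.05, interval -0.27 to 0.37). For all 3 the spread within an age was wider than the difference between ages.

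The cotransporter, the pump subunit, the channel and the water channel overlapped too. Slc12a2 had 480.1, 475 and 511 in aged and 488, 522 and 567 in young choroid plexus (-0.10, interval -0.37 to 0.17). Atp1b1 had 297, 447 and 449 in aged and 477, 512 and 346 in young choroid plexus (-0.17, interval -0.51 to 0.17). Each age has 1 library below the other 2 for this subunit. Kcnj13 had 591, 804 and 824 in aged and 849.5, 801 and 679 in young choroid plexus (-0.08, interval -0.36 to 0.20). Aqp1 had 579, 464 and 483 in aged and 417, 399 and 561 in young choroid plexus (0.16, interval -0.14 to 0.46).

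For 6 of the 9 genes, aged mouse 1 and young mouse 3 lay at the same end of their age. This pair was picked after the values were seen, and the share over all genes was not counted. Over 10205 genes, the deviations of these 2 libraries from the mean of their age had a Pearson r of 0.10. Aged mouse 1 and young mouse 3 had the lowest Kcne2, Slc4a10, Atp1b1 and Kcnj13 and the highest Slc4a2 and Aqp1 of their age. They also had the highest Ttr of their age, 253372 against 207902 and 242850 in the other aged mice and 269574 against 222447 and 239970 in the other young mice. The other 11 epithelial markers summed to 19202 in aged mouse 1, the lowest of its age (22347 and 22783 in the others), and to 25231 in young mouse 3, the highest of its age (22192 and 22213). Aged mouse 1 had a summed level of the 6 macrophage markers of 200.4, against 56.6 to 82.8 in the other 5 choroid plexus libraries. The part of these in the age differences was not tested; without aged mouse 1, the signs of Slc4a2 (-0.11), Atp1b1 (0.03) and Kcnj13 (0.07) turned.

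**Figure D2:**
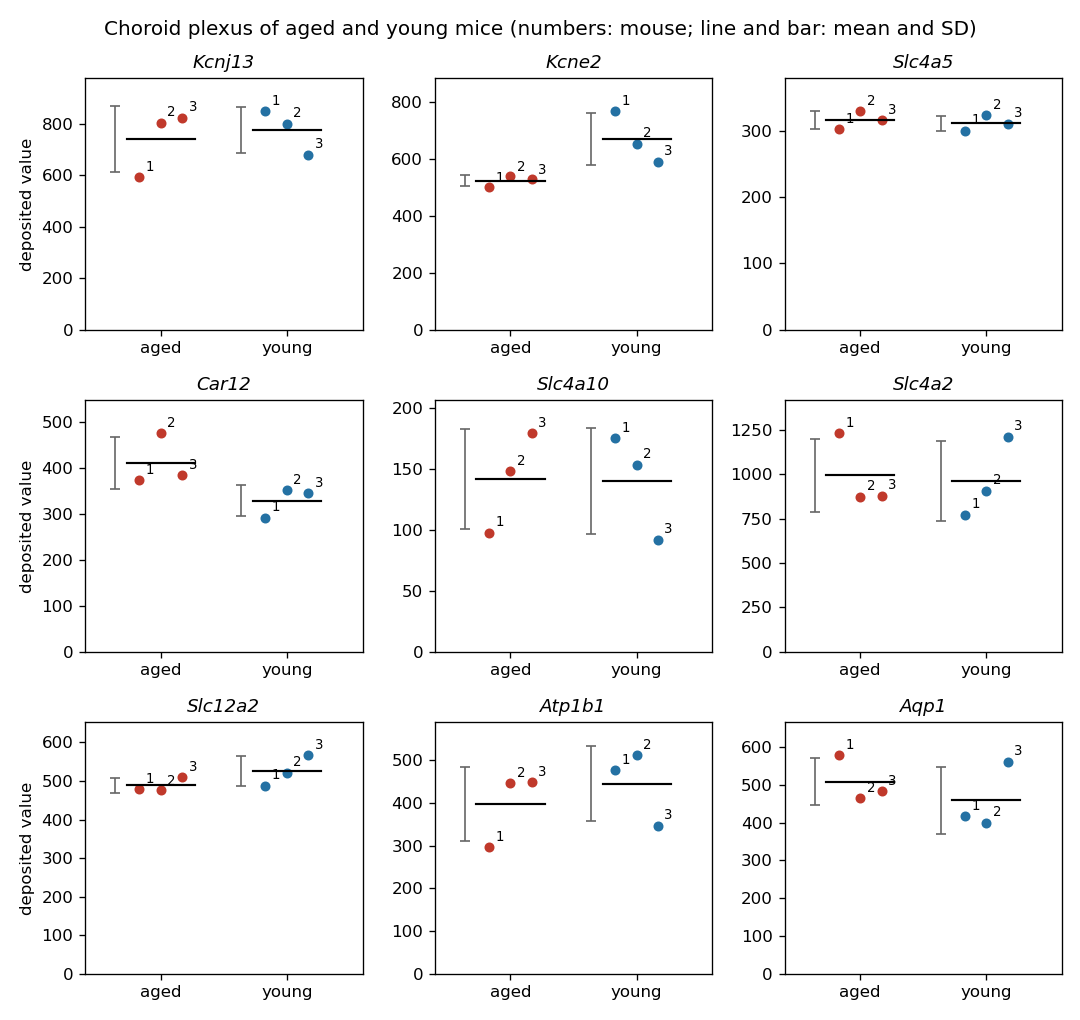
Deposited values of the 9 genes in choroid plexus of 3 aged and 3 young mice, with the mean (line), the SD (bar to the left) and the mouse number beside each point. Kcne2 (aged below young) and Car12 (aged above young) are the genes whose ages do not overlap. Mouse 1 of the aged and mouse 3 of the young, a pair picked after the values were seen, lie at the same end of their age for Kcne2, Slc4a10, Atp1b1 and Kcnj13 (lowest) and for Slc4a2 and Aqp1 (highest).

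Whether the age change in choroid plexus differs from that in the mean of the other 10 tissues was tested as a contrast of contrasts. None of the 9 passed, at -0.50 (Slc12a2) to 0.36 (Atp1b1) on the log2 scale, with 95% intervals of -1.48 to 0.48 and -1.22 to 1.95, and adjusted p of 0.9996 for each. This contrast called 0.143% of 16098 genes. Several of the 9 are at or near 0 outside choroid plexus, so their change there rests on few reads.

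Within the other tissues, members passed the filter on low values in 46 cases and 1 of these was called, Aqp1 in thymus. The share of all genes called with age was 1.19% in thymus, 0.0501% in bone marrow, 0.224% in cervical, 0% in inguinal and 0.039% in mesenteric lymph nodes, 0.111% in colon, 0% in hippocampus, 0.0187% in liver, 0.0264% in lung and 0.17% in spleen. Aqp1 had 44.2, 76.7 and 75.0 in aged thymus, against 26.7, 17.6 and 34.8 in young thymus. All aged libraries lay above all young ones, at 1.28 ± 0.292 (log2, SE; limma, adjusted p = 0.0484). But 12 of 15 alternatives lost this call, and over all 15 the limma adjusted p ran from 0.0258 to 0.188. The fibroblast markers summed to 263 to 579 in aged and 128 to 218 in young thymus, the endothelial markers to 75.2 to 101 in aged and 55.1 to 75.7 in young thymus, and the erythroid markers to 62.4 to 279.7 in aged and 13.4 to 31.3 in young thymus. The part of those cells in the Aqp1 difference was not tested.

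The parabiosis experiment asked how the age of the partner relates to expression in choroid plexus. Its table has another scale: no gene has more than 848 to 993 reads in a library, Ttr averaged 933 there against 239353 in choroid plexus of the tissue table, and genes at 800 to 1600 in the tissue table had a median of 328. The 9 genes averaged 236 to 424 in the parabiosis table and 141 to 979 in choroid plexus of the tissue table. Slc4a2 averaged 263 in the parabiosis table and 979 in the tissue table, whereas Slc4a10 averaged 236 in the parabiosis table and 141 in the tissue table. How the high values came to be lower there is not given in the sources used here, and its part in the differences was not tested. Values are compared within a table only.

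**Figure D3:**
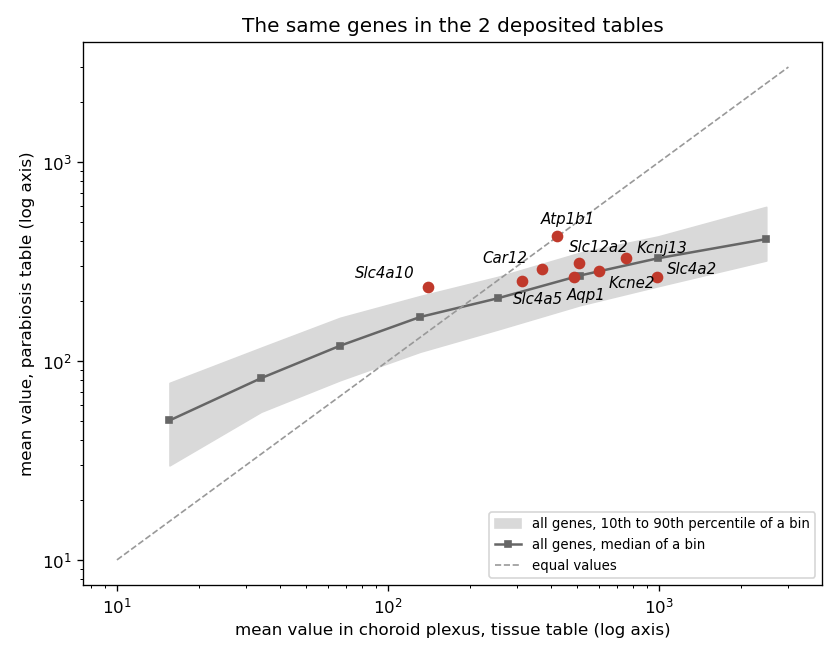
Mean value in choroid plexus of the tissue table (x, log axis) against the mean over the 11 parabionts (y, log axis) for the 9 genes (red), with the median and the 10th to 90th percentile of all genes in bins of the x value (grey). The grey line flattens towards high values, and the 9 genes span 141 to 979 on x and 236 to 424 on y.

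Between old and young isochronic parabionts none of the 9 passed, where 0.188% of 13301 genes were called. All 9 differences, old minus young, lay below 0, from -0.23 (Kcne2) to -0.02 (Slc4a10) with a median of -0.08. Of the 377 other genes with a mean of 200 or more in the parabiosis table, 40.1% lay above 0, against 50.9% of the genes below that level. Of the 9, 2 lay above 0 under quantile normalization, 4 without young isochronic mouse 1, and 2 without young isochronic mouse 3 or without old isochronic mouse 21. Kcne2 had 255, 258 and 246 in old isochronic parabionts, against 299, 333 and 261 in young isochronic parabionts. The groups did not overlap for Kcne2 alone among the 9, and for 10.6% of all genes, and its difference was -0.23 ± 0.104 (log2, SE; limma, adjusted p = 0.964; 95% interval -0.44 to -0.01). Kcne2 thus lay lower in every aged than in every young mouse of the tissue experiment and in every old than in every young isochronic parabiont, and passed in neither. The share of all genes that repeat an order in this way was not counted. Of the 12 epithelial markers, 9 lay below 0 and 3 above 0 in old against young isochronic parabionts, with a median of -0.03. Car12 did not repeat its order: it had 273, 262 and 266 in old isochronic parabionts, against 305, 315 and 247 in young isochronic parabionts (-0.11, interval -0.30 to 0.09). Without young isochronic mouse 5, which had the lowest value of 7 of the 9 genes among all 11 libraries, the median of the 9 was -0.16, and without young isochronic mouse 1 it was -0.01.

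In young mice, none of the 9 genes passed between those with an old and those with a young partner. No gene of 13301 was called by limma between young heterochronic and young isochronic parabionts (0%; 859 had an unadjusted p under 0.05), nor by voom; without young heterochronic mouse 11 there were 6 calls, all lower and none among the 9. The 9 differences ran from -0.10 (Kcne2) to 0.17 (Slc12a2), 8 of them above 0. Of the 377 other genes with a mean of 200 or more in the parabiosis table, 84.9% lay above 0, against 48.8% of the genes below that level. Without young isochronic mouse 5, 7 of the 9 lay below 0, as did 6 without young heterochronic mouse 9 and 6 under quantile normalization. The groups overlapped for all 9, where 10.6% of all genes did not overlap. Slc12a2 had 335, 349 and 304 in young heterochronic parabionts, against 311, 308 and 258 in young isochronic parabionts (limma, adjusted p = 0.809; 95% interval -0.02 to 0.36).

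In old mice, all 9 genes were higher with a young partner in the deposited values, and none passed. The differences, old heterochronic minus old isochronic, ran from 0.11 (Slc4a10) to 0.33 (Slc4a2) with a median of 0.26 and adjusted p of 0.458 to 0.780, and under quantile normalization the median was 0.05 and 3 of the 9 lay below 0. No gene of 13301 was called by limma (0%; 1185 had an unadjusted p under 0.05) or by voom. Leaving out an old heterochronic mouse leaves that group without a replicate, so calls from such fits are not given. The libraries did not overlap for 8 of the 9 genes, the exception being Atp1b1, where 27.7% of all genes did not overlap with 2 libraries against 3.

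Slc4a2 had 276 and 311 in old heterochronic parabionts, against 240.4, 210.1 and 247 in old isochronic parabionts (0.33 ± 0.109, log2, SE; limma, adjusted p = 0.458). Aqp1 had 280.2 and 333 in old heterochronic parabionts, against 247, 233 and 251 in old isochronic parabionts (0.33 ± 0.108, limma, adjusted p = 0.458). Both old heterochronic libraries lay above the 3 old isochronic ones for each of these. Kcnj13 had 354 and 384 in old heterochronic parabionts, against 317, 298 and 294 in old isochronic parabionts (0.28 ± 0.103). Kcne2 had 278 and 340.1 in old heterochronic parabionts, against 255, 258 and 246 in old isochronic parabionts (0.28 ± 0.116). Slc12a2 had 312 and 369.7 in old heterochronic parabionts, against 311, 259 and 284 in old isochronic parabionts (0.26 ± 0.104), where the nearest libraries differ by about 1. The remaining 4 were between 0.11 and 0.22.

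Of the 377 other genes with a mean of 200 or more in the parabiosis table, 360 (95.5%) lay above 0 in this comparison, with a median of 0.18 and none called; of the genes below that level 46.2% lay above 0, with a median of -0.02. The 12 epithelial markers all lay above 0, with a median of 0.24, and summed to 4973 and 5806 in old heterochronic and to 4186 to 4548 in old isochronic parabionts, with no marker called. Lists of other cell types lay above 0 in part, also with none called: 4 of 6 macrophage markers (median 0.23), 4 of 5 mural markers (0.21), 4 of 5 neuron markers tested (0.26), 2 of 3 oligodendrocyte markers tested (0.23), 4 of 6 fibroblast markers (0.15) and 5 of 6 endothelial markers (0.08), against 1 of 4 astrocyte markers (-0.22). The value worth 1 read was 1.13 and 1.48 in the old heterochronic and 0.852 to 0.961 in the old isochronic libraries. In reads, before that factor, the 9 genes held 170 to 366 in old heterochronic libraries, whose depth was 533564 to 686520. They held 237 to 456 in old isochronic libraries, whose depth was 797960 to 884510. Old heterochronic mouse 34, with the largest factor, had the highest value of 7 of the 9 genes among all 11 libraries, and without it the median difference was 0.13, against 0.35 without old heterochronic mouse 29. The part of the factor and of the marker levels in these differences was not tested.

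**Figure D4:**
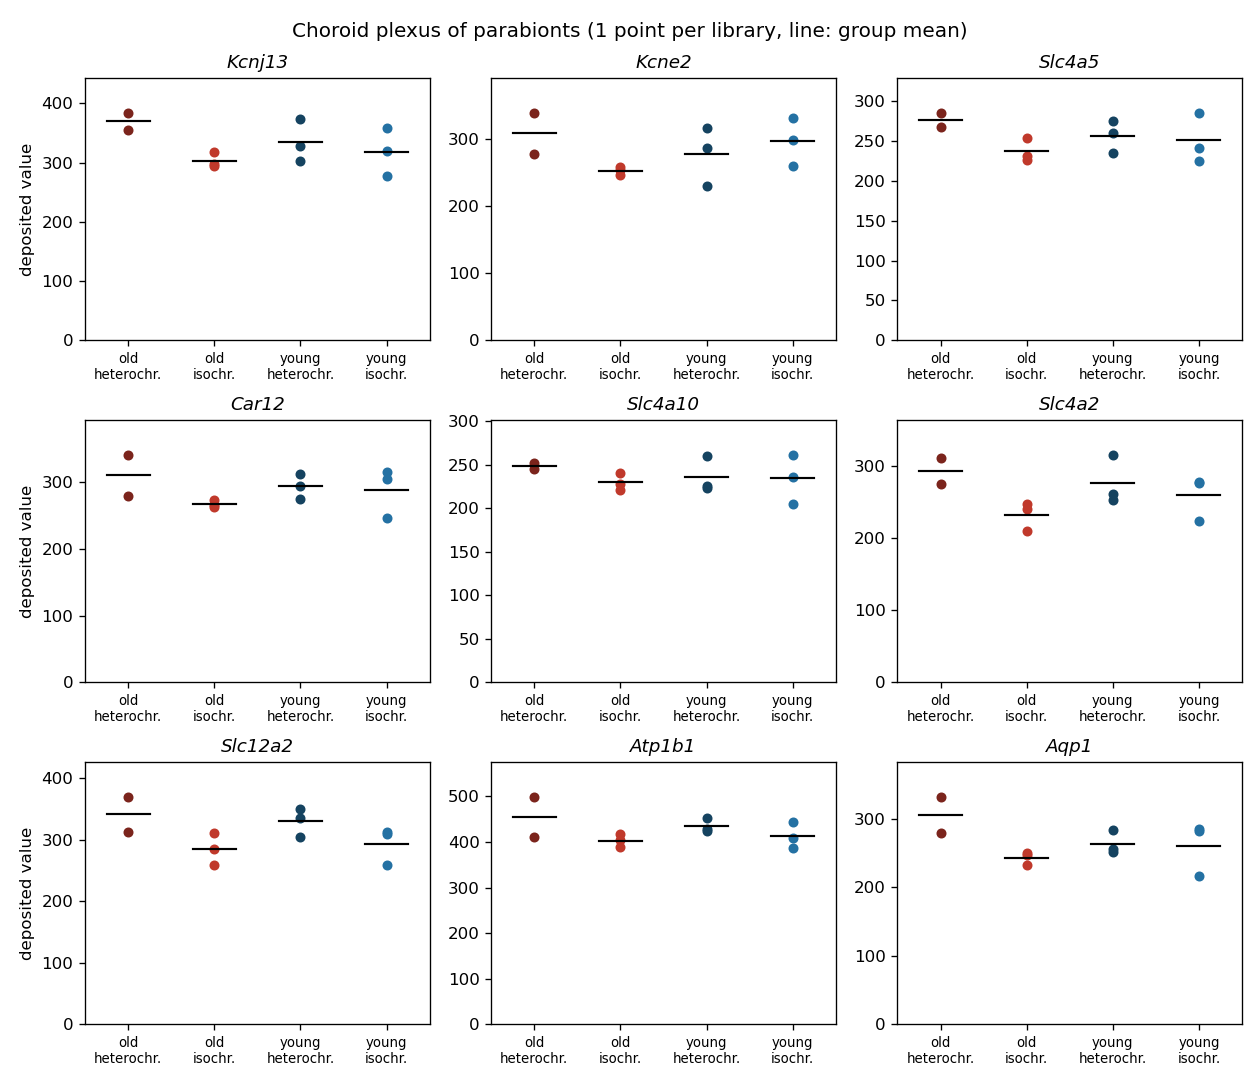
Deposited values of the 9 genes in the choroid plexus of 2 old heterochronic, 3 old isochronic, 3 young heterochronic and 3 young isochronic parabionts, 1 point per library with the group mean as a line. In the deposited values the old heterochronic mean is the highest of the 4 groups in each panel, and none of the differences was called.

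Between old and young heterochronic parabionts none of the 9 passed either, where 0.135% of genes were called, 14 higher and 4 lower. Calls without old heterochronic mouse 29 or 34 are not given, as that group then has no replicate. The 9 differences over all libraries ran from 0.05 (Slc12a2) to 0.21 (Aqp1). Of the 377 other genes with a mean of 200 or more, 81.2% lay above 0. The groups overlapped for all 9, where 22.9% of all genes did not. Without old heterochronic mouse 34, 3 of the 9 lay below 0, and so did 3 under quantile normalization. Over both partner ages together, old minus young lay between -0.03 (Kcne2) and 0.06 (Aqp1), with adjusted p of 0.935 to 0.999, and 0.444% of genes were called. In that comparison 6 of the 9 lay above 0, as did 77.2% of the 377 other genes with a mean of 200 or more. Among the 9, 3 signs turned under quantile normalization. All 9 lay below 0 without young isochronic mouse 5, and all 9 lay above 0 without young heterochronic mouse 9 or old heterochronic mouse 29. The 95% interval for Kcne2 was -0.19 to 0.12. Its difference was 0.16 in heterochronic and -0.23 in isochronic parabionts, and the contrast of those was not tested.

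**Figure D5:**
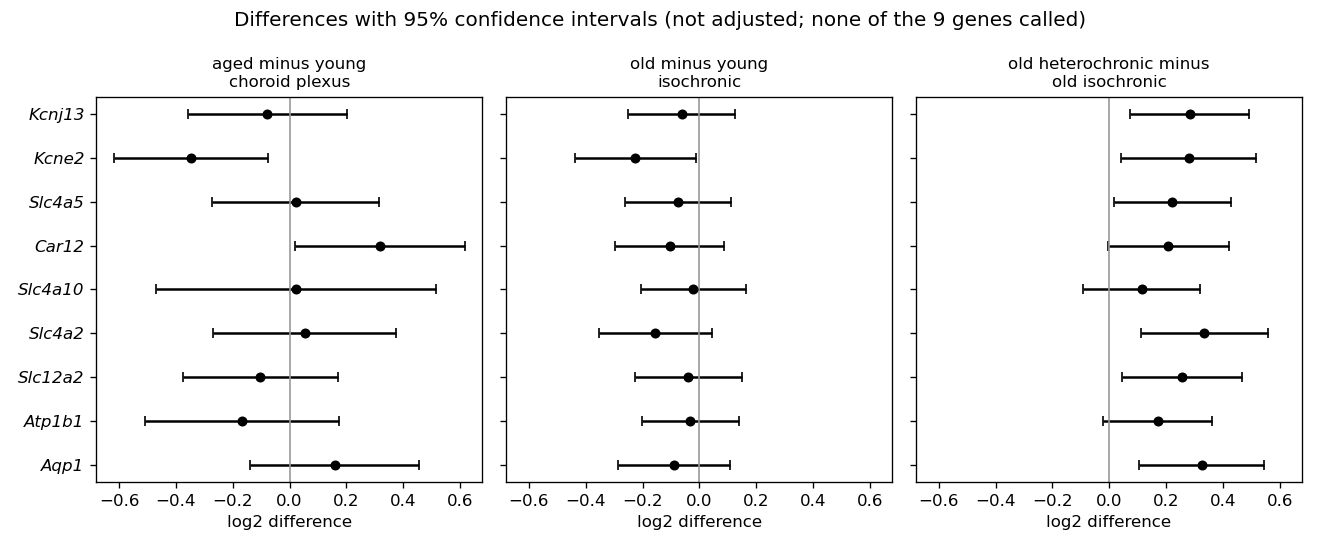
Differences on the log2 scale with unadjusted 95% intervals for the 9 genes, for aged minus young choroid plexus, old minus young isochronic parabionts, and old heterochronic minus old isochronic parabionts. Kcne2 lies below 0 in the first 2 panels, all 9 genes lie above 0 in the third, though 3 of them lie below 0 there under quantile normalization, and none passed adjustment over all genes.

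Among the 32 other transport genes, none was called in aged against young choroid plexus (25 tested, median -0.03), in old against young isochronic (30 tested, median -0.03), or in old heterochronic against old isochronic parabionts (30 tested, median 0.13). Trpm3 had the smallest p with age in choroid plexus, averaging 162 ± 8.32 in aged and 118 ± 32.8 in young mice (SD, n = 3 each; 0.49 ± 0.189, log2, SE; limma, adjusted p = 0.613). Over both partner ages, where 0.444% of all genes were called, 1 of 30 was called: Wnk4, a kinase that regulates ion cotransporters, was lower in old than in young parabionts (-0.44 ± 0.0966, limma, adjusted p = 0.0240). It had 60.8 and 53.2 in old heterochronic and 51.0, 47.7 and 58.2 in old isochronic parabionts, against 68.4, 98.7 and 76.5 in young heterochronic and 71.2, 68.1 and 66.0 in young isochronic parabionts. All 5 old libraries lay below all 6 young ones. The call was lost in 10 of 19 alternatives. Over all 19, the limma adjusted p ran from 0.0105 to 0.273 and the differences from -0.49 to -0.36. In choroid plexus of the tissue experiment, Wnk4 averaged 8.94 ± 8.41 in aged and 12.7 ± 4.65 in young mice (SD, n = 3 each; limma, adjusted p = 0.871).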

How the data were processed

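RNA-seq values of 63 tissue libraries and 11 parabiosis libraries were analysed, of 75 samples in the labels; 1 column matching no listed sample was not used. The authors deposited signal values per RefSeq transcript, and per the submitters' processing notes TopHat and the mm9 build were used. The way reads were counted and scaled was not given in the sources used here, nor were tool versions. Within a library, 78.0 to 86.9% of values above 0 were whole multiples (tolerance 0.001) of the most frequent value, taken as 1 read. Depth is that count of reads, and it limits the precision of low values. The row of highest mean was kept per symbol.

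Log2(value + pseudocount) was tested with limma 3.58.1 in R 4.3.3, with trend and robust variances, where enough libraries for the smallest group exceeded 4 pseudocounts of 1 read each. P-values were adjusted by Benjamini-Hochberg over all genes tested and called under 0.05; intervals are 95% and unadjusted. Levels and the contrast of age changes came from 1 model of tissue, age and mouse. Choroid plexus age was fitted alone, and the 4 parabiosis groups together. Fits were tested on simulated data. Alternatives covered pseudocount, filter, scaling, trend, voom, summed rows, mouse block and each library left out.

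Members and lists were chosen with earlier results of these data known. The genes named are the 9 members, up to 4 of each list with the smallest p and the 3 most alike by Pearson r among genes with a tissue mean above 10 pseudocounts; the lower transport genes and Aqp4 were named after their values were seen. A few genes chosen this way are left unnamed and not reported here. Each library is 1 mouse as labelled.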

Additional observations from a re-analysis of the deposited data

How the results depend on the processing

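The count of the 9 genes called stayed at 9 in the comparison of levels and at 0 in the 7 other comparisons under every alternative run. Under quantile normalization the sign turned for Slc4a5 (-0.023) and Slc4a10 (-0.0073) in aged against young choroid plexus, for Slc4a10 (0.0064) and Atp1b1 (0.020) in old against young isochronic parabionts, for Slc4a10 (-0.047), Atp1b1 (-0.099) and Car12 (-0.023) in old heterochronic against old isochronic parabionts, and for Slc12a2 (-0.064), Atp1b1 (-0.092) and Car12 (-0.042) in old against young heterochronic parabionts. It also turned for Aqp1, Slc4a5, Slc4a10, Car12 and Kcnj13 in young heterochronic against young isochronic parabionts (-0.055 to -0.0099), and for Slc4a5, Slc12a2 and Atp1b1 in old against young over both partner ages (-0.039 to -0.023). Leaving out 1 library at a time, followed for all 9 genes in choroid plexus age and in old heterochronic against old isochronic parabionts and elsewhere for those with the lowest and highest difference, turned signs in these ranges: in aged against young choroid plexus, -0.010 to 0.052 for Slc4a5, -0.25 to 0.27 for Slc4a10, -0.11 to 0.23 for Slc4a2, -0.34 to 0.029 for Atp1b1 and -0.17 to 0.074 for Kcnj13. It gave -0.014 to 0.59 for Atp1b1 in the contrast of age changes, -0.12 to 0.061 for Slc4a10 in old against young isochronic, -0.20 to 0.028 for Kcne2 in young heterochronic against young isochronic, -0.077 to 0.17 for Slc12a2 in old against young heterochronic parabionts, and -0.11 to 0.038 for Kcne2 and -0.0048 to 0.12 for Aqp1 in old against young over both partner ages. The cause was not tested.

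Over all genes, the 31 calls with age in choroid plexus became 57 with no filter and 5 with no trend. The 25 calls in old against young isochronic parabionts became 2 with no trend, 13 with the smallest pseudocount and 14 with summed rows. They became 44 with the groups compared fitted alone and 9 to 24 without 1 library of a group of 3. The 18 calls in old against young heterochronic parabionts became 1 with no trend, 9 with the groups compared fitted alone and 10 with voom. They became 10 to 19 without 1 library of a group of 3. The 59 calls over both partner ages became 31 with no trend, 38 with voom and 37 to 51 without 1 library of a group of 3. Fits without an old heterochronic library are left out of these ranges, as that group then has no replicate. The 23 calls in the contrast of age changes became 312 with the smallest pseudocount, 318 with no filter, 14 with a pseudocount of 4 reads and 9 with voom. With the replicate block, 0 of the 9 genes and 42 genes in all were called with age in choroid plexus. Same-numbered choroid plexus libraries are different mice, with deviations correlated at -0.06, 0.02 and -0.04 over 10205 genes. Pairs with different numbers gave -0.07 to 0.10. Whether libraries with the same number share a batch was not tested. With no replicate block for the mouse, all 9 were still called in the comparison of levels. With 2 or 3 mice a group, differences can be missed. In simulated data with genes of all levels tested, 23.1% of log2 changes of -1 and 40.5% of changes of 1 were called in aged against young choroid plexus. In old heterochronic against old isochronic parabionts these shares were 62.2% and 43.6%. The intervals are unadjusted, and one that excludes 0 did not suffice for a call, as for Kcne2 and Car12 with age.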
